A study of Rattus norvegicus with 40 samples.

Results

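The miR-200 family is described here in rat plasma from every miRNA of the count matrix named rno-miR-200a, rno-miR-200b, rno-miR-200c, rno-miR-141 or rno-miR-429, whichever arm of the hairpin it came from. This rule by name found 9 of 752 miRNAs, and 7 of the 9 held at least 1 read, among 581 miRNAs with reads. Small RNA from tail-vein plasma of 20 adult male Sprague-Dawley rats was sequenced at D2 and, from the same animals, at D9 after surgery, which gave 40 libraries. All rats had a craniotomy: 16 then received a lateral fluid-percussion injury, a pressure pulse of fluid against the dura that models traumatic brain injury (TBI), and 4 sham rats received no pulse. Of the 16 TBI rats, 7 had epilepsy on video-EEG in the sixth month after injury (TBI+) and 9 did not (TBI-). The comparisons address whether an injury, or an injury followed by epilepsy, was accompanied by another plasma level of these miRNAs. Plasma collects RNA from blood cells and from many tissues, so more cells releasing a miRNA and more of it released per cell cannot be told apart.

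The miR-200 family is abundant in epithelial cells, where it keeps the epithelial state by repressing the transcription factors Zeb1 and Zeb2, which in turn repress the miRNA genes. Its members are transcribed from separate gene clusters, miR-200b with miR-200a and miR-429, and miR-200c with miR-141. They recognise their targets through a pair of seeds that differ at a single base, so miR-200a and miR-141 share targets, as do miR-200b, miR-200c and miR-429.

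The sequences are shown because these seeds order the results and because the likeness of miR-200a to miR-141 bears on how far their counts can be separated. They are RefSeq sequences on the GRCr8 build, which supplied mature sequences for 6 of the 9 miRNAs and all 5 hairpins. On chromosome 4 the hairpins Mir141 and Mir200c lie within 509 bases of the minus strand, chr4:159209525-159210033. On chromosome 5 Mir429, Mir200a and Mir200b lie within 1908 bases of the minus strand, chr5:171929682-171931589. Capitals mark the seed, bases 2 to 8.
miR-141-3p, chr4:159209540-159209561: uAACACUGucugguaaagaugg
miR-200c-3p, chr4:159209969-159209989: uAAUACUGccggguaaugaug
miR-200b-5p, chr5:171931548-171931569: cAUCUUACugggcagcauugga
miR-200a-5p, chr5:171930770-171930790: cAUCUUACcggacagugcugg

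The 3p arms of miR-141 and miR-200c, the neighbours on chromosome 4, were identical at 17 of 21 positions. The mature sequences of miR-200a-3p, miR-200b-3p and miR-429 are named only. Their hairpins show which seed each carries. Capitals in the next lines mark the longest run that each hairpin shares with miR-141-3p (Mir200a, 16 bases from the first base of the mature miRNA) or with miR-200c-3p (Mir200b, 10 bases, and Mir429, 8 bases, both from its first base).
Mir200a: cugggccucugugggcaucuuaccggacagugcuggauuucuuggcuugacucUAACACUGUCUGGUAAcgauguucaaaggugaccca
Mir200b: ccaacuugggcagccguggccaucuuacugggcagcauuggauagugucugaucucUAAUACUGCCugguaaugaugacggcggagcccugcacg
Mir429: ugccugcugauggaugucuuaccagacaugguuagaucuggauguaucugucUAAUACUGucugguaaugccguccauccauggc

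Levels are given as CPM, the reads of a miRNA per 1000000 reads assigned to miRNAs in its library, not divided by length. The sham libraries of D9 were the shallowest group, with 140636 to 358202 reads (median 182092), against 594332 to 1331905 in sham rats on D2 and 332161 to 2864893 in TBI rats on D9. The level that 3 reads give was 1.05 to 21.3 CPM in the D9 libraries and 1.17 to 7.42 CPM in those of D2, which limits what can be said of the scarce members. The library of sham rat 2 on D9, with 162125 reads, stood apart from the other sham libraries in this family, and the D9 results that rest on sham rats are given with and without it. Its weight was not restricted to the family: with p-values from edgeR's quasi-likelihood test, adjusted after Benjamini and Hochberg, 19 of 541 miRNAs passed an adjusted p of 0.05 between TBI and sham rats on D9 with this library and 0 without it (70 at an unadjusted p below 0.05 without it). The library numbers in the labels fall into 3 runs, and the sources do not say what a run stands for. On each day the 4 sham libraries shared a run with 4 TBI+ libraries and with no TBI- library. Run and group therefore cannot be told apart within the TBI- and sham libraries alone. A fit with the run as a covariate links these groups only through the TBI+ libraries. The sham libraries of D2 and D9 lay in different runs.

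The family was led by 3 members of similar level. Of these, rno-miR-200a-3p had 27260 reads over the 40 libraries and a median of 582 CPM (range 271 to 1900), rank 74 among the 581 miRNAs by mean level. Next came rno-miR-141-3p, with 25801 reads and a median of 564 CPM (253 to 1252), rank 79. The third, rno-miR-429 of the chromosome 5 cluster, had 24202 reads and a median of 503 CPM (201 to 1347), rank 83. Their ranges overlapped almost wholly, and together they held nearly all of the family's reads, 34%, 32.1% and 30.2%. The others, rno-miR-200b-3p at a median of 40.1 CPM (8.58 to 191) and rno-miR-200c-3p at 17.5 CPM (1.73 to 401), made up 2.38% and 1.04%. Both were read in all 40 libraries, miR-200c-3p at 832 reads in all. The level of miR-200b-3p did not reach that of miR-429 in any pair of libraries, whereas the ranges of miR-200b-3p and miR-200c-3p overlapped.

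The passenger arms were scarce. MiR-141-5p and rno-miR-200b-5p were each read in 29 libraries, with at most 14 and 12 reads in a library. MiR-200a-5p and miR-200c-5p were listed at 0 in all 40 libraries. A listed 0 is not evidence of absence here, since miR-122-5p, the most abundant miRNA of hepatocytes, and the muscle miRNA miR-1-3p were also listed at 0 in every library, while miR-122-3p was read in all of them.

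**Figure D1:**
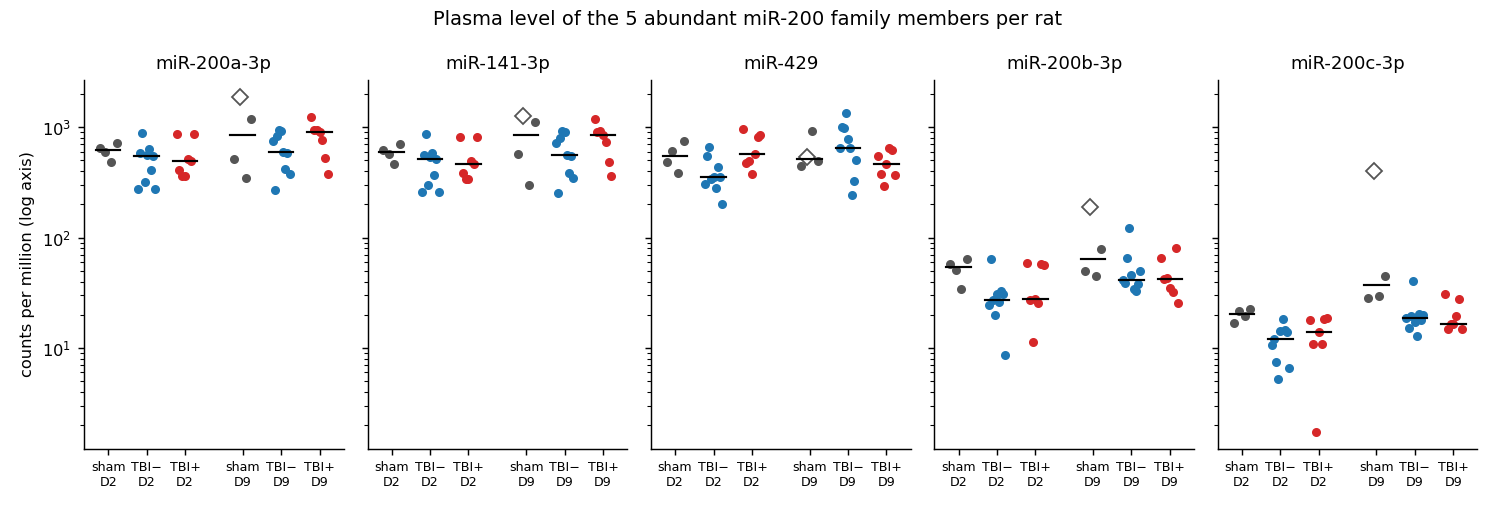
Level of the 5 main members (CPM, log axis) in each library, by group and day, with a bar at the median of each group and an open diamond for sham rat 2 on D9. The diamond is the highest miR-200c-3p point, at 401 CPM, and the ranges of miR-200a-3p, miR-141-3p and miR-429 overlap in all groups.

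MiR-200a-3p and miR-141-3p followed each other almost read for read, although they are transcribed from different chromosomes. Summed over the 40 libraries, their absolute difference was 5.55% of their mean total. MiR-200a-3p had the higher count in 39 of 40 libraries, and outside sham rat 2 on D9 its excess was between -9.59% and 14.3% of its own reads (median 5.16%). In sham rat 2 on D9 the excess was 34.1%, or 105 of 308 reads. Spearman's rho between their CPM values was 0.994 over the 40 libraries, 0.995 over the 20 of D2 and 0.986 over the 20 of D9. Such closeness was uncommon: among miRNAs with at least 1000 reads, 11 pairs had a summed difference below 10%, among them miR-10a-5p with miR-10b-5p and miR-23a-3p with miR-23b-3p. The 2 mature miRNAs share a run of 16 bases, printed in capitals above. How the counting treated reads that match both genes is not given in the sources used here, so the counts of miR-200a-3p and miR-141-3p are uncertain as separate measurements, and a sum over the family may hold some reads in duplicate.

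**Figure D2:**
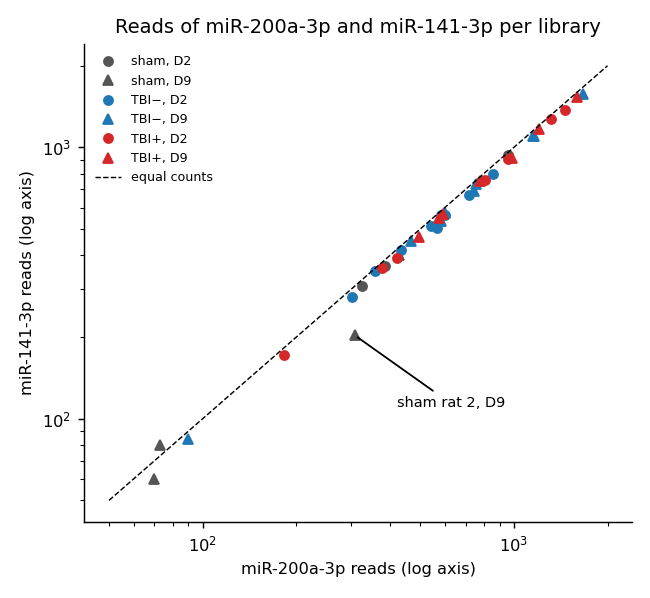
Reads of miR-141-3p against reads of miR-200a-3p in each of the 40 libraries (log axes), with the line of equal counts. The points follow the line, and sham rat 2 on D9 lies below it with 105 fewer miR-141-3p than miR-200a-3p reads.

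On D2, no member of the family differed between TBI and sham rats at an adjusted p below 0.05 (edgeR's quasi-likelihood test, adjusted after Benjamini and Hochberg over 565 miRNAs), against a background of 6.19% of all miRNAs called. The same held for TBI+ against sham (background 3.19%) and for TBI- against sham (6.19%). The members with the AACACUG seed were at about the same level. MiR-200a-3p was at 646, 601, 485 and 718 CPM in sham rats 1 to 4, and at a lowest, median and highest of 274, 503 and 882 CPM in the 16 TBI rats. MiR-141-3p was at 618, 573, 460 and 703 CPM in sham rats and at 257, 481 and 868 CPM in TBI rats. The TBI ranges enclosed the sham values for both miRNAs, 7 TBI rats lying below all sham rats and 3 above them. The log2 fold changes of TBI against sham were -0.11 (SE 0.25, 95% interval -0.63 to 0.40) for miR-200a-3p and -0.13 (SE 0.26, -0.66 to 0.40) for miR-141-3p.

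The members with the AAUACUG seed were less alike on D2. MiR-429 was at 488, 614, 383 and 753 CPM in sham rats and at 201, 456 and 957 CPM in TBI rats, and its log2 fold change was -0.06 (SE 0.28, 95% interval -0.63 to 0.51). MiR-200b-3p was at 57.2, 51.2, 34.3 and 64.6 CPM in sham rats and at 8.58, 27.5 and 64.4 CPM in TBI rats. MiR-200c-3p was at 16.8, 21.4, 19.4 and 22.5 CPM in sham rats and at 1.73, 12.96 and 18.9 CPM in TBI rats. For each of miR-200b-3p and miR-200c-3p, 12 of 16 TBI rats lay below all 4 sham rats and none lay above them. The share of all miRNAs with such a partial separation was not counted, here or on D9. The groups overlapped for every member, where 2.12% of all miRNAs did not overlap. The log2 fold changes were -0.53 (SE 0.35, 95% interval -1.25 to 0.19, adjusted p = 0.426 by edgeR) for miR-200b-3p and -0.60 (SE 0.36, -1.34 to 0.13, adjusted p = 0.376 by edgeR) for miR-200c-3p. Both intervals reach from a fall by more than 1 on the log2 scale to above 0. The lowest miR-200c-3p value, in TBI+ rat 3, rested on 2 reads. Within the run that the sham libraries of D2 shared with 4 TBI+ libraries, miR-200c-3p ranged from 1.73 to 17.9 CPM (median 12.4) in TBI+ rats and from 16.8 to 22.5 CPM (median 20.4) in sham rats. The median log2 fold change over the 7 tested members was -0.13, and over all miRNAs 0.09.

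On D9, miR-200c-3p was the member called between TBI and sham rats, and this call rested on sham rat 2. Its levels in sham rats 1 to 4 were 28.4, 401, 29.7 and 44.7 CPM, from 4, 65, 6 and 16 reads. In the 16 TBI rats it was at 12.9, 18.2 and 40.7 CPM (lowest, median and highest). Sham rat 2 lay far above all other libraries, 14 of 16 TBI rats lay below all sham rats, and the groups overlapped, as they did for every member (0.555% of all miRNAs did not overlap). With all libraries, the log2 fold change of TBI against sham was -2.49 (SE 0.43, 95% interval -3.37 to -1.62, adjusted p = 0.000144 by edgeR's quasi-likelihood test), 1 of 7 tested members called against a background of 3.51%. Without sham rat 2 it was -0.80 (95% interval -1.67 to 0.07, adjusted p = 0.437 by edgeR) and no member was called. Against the same sham rats, TBI+ rats gave -2.46 (SE 0.51, adjusted p = 0.00228 by edgeR; background 1.85%), which became -0.76 (adjusted p = 0.521) without sham rat 2. TBI- rats gave -2.51 (SE 0.48, adjusted p = 0.000701 by edgeR; background 4.81%), and -0.83 (adjusted p = 0.532) without it. These comparisons share their sham rats, so they are not separate evidence. Within the run shared by sham rats and 4 TBI+ rats, miR-200c-3p was at 14.7 to 30.7 CPM (median 16.5) in the TBI+ rats.

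The excess in sham rat 2 on D9 was not shared equally by the family. Its miR-200b-3p was at 191 CPM against 49.8, 44.5 and 78.2 CPM in the other sham rats, and its miR-200b-5p was at 43.2 CPM, from 7 reads, against 0, 0 and 8.38 CPM. Its miR-200a-3p was at 1900 CPM against 519, 346 and 1189 CPM, and its miR-141-3p at 1252 CPM against 569, 297 and 1119 CPM. Its miR-429, at 537 CPM, lay within the other sham values of 448, 921 and 497 CPM, although miR-429 shares its seed with miR-200c and its cluster with miR-200a and miR-200b. The ratio of miR-200b-3p to miR-200c-3p reads was 0.477 in this library and 1.31 to 6.5 in the other 39. On D2 the same rat had shown 21.4 CPM of miR-200c-3p, within the range of the other sham rats. The summed level of a list of skin and stratified-epithelium miRNAs was also highest in this library among sham rats on D9 (626 to 5860 CPM, against 227 to 3945 CPM in TBI rats). That list rested on miR-205, with both arms of miR-203a listed at 0 in all libraries. The part of other cell types or of depth in the excess was not tested.

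No other member was called on D9. For TBI against sham, the log2 fold changes with and without sham rat 2 were -0.76 and -0.25 for miR-200b-3p (SE 0.39 and 0.43), and -2.13 and -0.53 for miR-200b-5p (SE 0.81 and 1.07). In TBI rats miR-200b-3p was at 25.4, 41.7 and 122.1 CPM (lowest, median and highest), 10 of 16 lying below all sham rats. MiR-200a-3p was at 271, 754 and 1227 CPM in TBI rats, with log2 fold changes of -0.38 with and 0.06 without sham rat 2 (SE 0.35 and 0.37). MiR-141-3p was at 253, 723 and 1177 CPM, with -0.16 and 0.04 (SE 0.34 and 0.38). Both miRNAs changed sign with that library, and neither interval excluded 0. MiR-429 was at 245, 590 and 1347 CPM in TBI rats, with log2 fold changes of 0.14 with and -0.07 without sham rat 2 (SE 0.35 and 0.38). The median over the 7 members was -0.67 and over all miRNAs 0.30, and without sham rat 2 these were -0.25 and 0.38. With RLE scaling of the same 541 miRNAs the median of all miRNAs was 0.12. It was -0.38 over the 300 miRNAs that DESeq2 kept and -0.04 over the 275 that filterByExpr kept, where the set of miRNAs differed too.

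**Figure D3:**
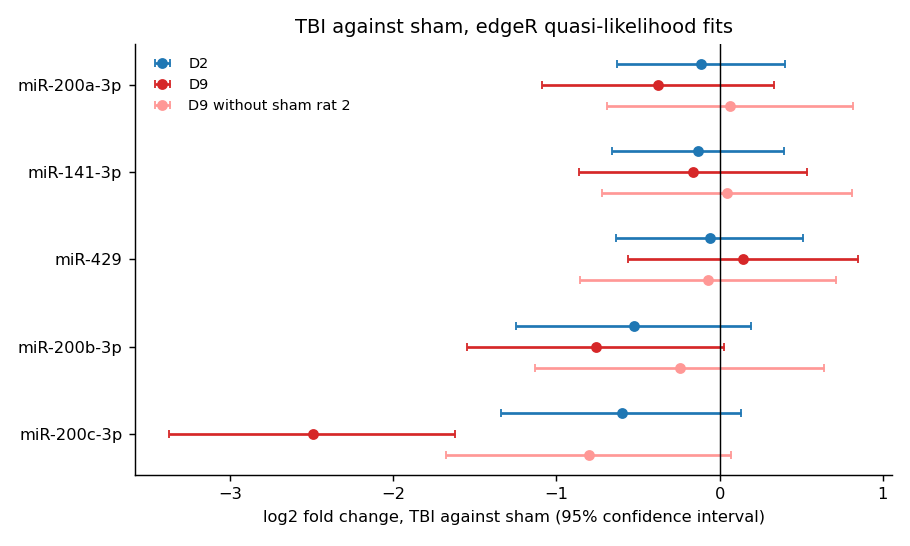
Log2 fold change of TBI against sham with its 95% interval for the 5 main members on D2, on D9, and on D9 without sham rat 2. The D9 interval of miR-200c-3p, -3.37 to -1.62, is the interval that excludes 0, and it moves to -1.67 to 0.07 without that library.

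Summed over the family, the level was 1383 to 2267 CPM (median 1848) in sham rats and 752 to 2735 CPM (median 1483) in TBI rats on D2. On D9 the sums were 1621 to 4330 CPM (median 2292) in sham rats, 1621 to 2945 CPM (median 1638) without sham rat 2, and 1108 to 3379 CPM (median 2191) in TBI rats. The sums overlapped on both days, and on D9 the sham median moved from above to below the TBI median when that library was left out.

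From D2 to D9 in TBI rats, 1 member of the family was called. MiR-200c-3p was called upregulated on D9, with a log2 fold change of 0.72 (SE 0.27, 95% interval 0.17 to 1.27, adjusted p = 0.0372 by edgeR), and it was higher on D9 in 14 of 16 TBI rats (median ratio 1.46). This was 1 of 7 tested members, against a background of 32% of all 581 miRNAs called in either direction between the days. MiR-200b-3p was higher in 13 of 16 rats (median ratio 1.37), with a log2 fold change of 0.59 (SE 0.25, adjusted p = 0.0609 by edgeR). With each rat as a block, so that every rat was compared with itself, both were called. MiR-200c-3p was then at 0.76 (adjusted p = 0.0145 by edgeR) and miR-200b-3p at 0.64 (adjusted p = 0.0224). In that fit 162 of all 581 miRNAs were called. Apart from TBI- rat 5, every TBI rat had its D2 and D9 libraries in different library runs. The comparison within a rat therefore also crosses runs. MiR-200a-3p and miR-141-3p were each higher in 12 of 16 rats, with log2 fold changes of 0.45 (SE 0.21, adjusted p = 0.0895 by edgeR) and 0.46 (SE 0.20, adjusted p = 0.0803). MiR-429 was higher in 9 of 16 rats, at 0.31 (SE 0.21, adjusted p = 0.277 by edgeR), and the scarce miR-200b-5p was higher in 7 and lower in 7. The median over the 7 members was 0.46 and over all miRNAs 0.06. The call of miR-200c-3p did not pass with RLE scaling (0.66, adjusted p = 0.0568), with libraries thinned to equal depth (1.08, adjusted p = 0.0842) or with the library run as a covariate (0.69, adjusted p = 0.0666), all by edgeR.

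Blood cell miRNAs also differed between the days in TBI rats. Of the red blood cell list, 5 of 6 miRNAs rose from D2 to D9. So did 2 of 3 tested miRNAs of the list named platelet and endothelium, which were miR-126a-3p and miR-223-3p. By contrast, 7 of 12 neuronal and 3 of 6 tested muscle miRNAs fell (all by edgeR, adjusted p below 0.05). The background was 81 of all 581 miRNAs called upward and 105 downward, 32% in either direction. Summed over the list, the red blood cell level in TBI rats was 1743 to 6702 CPM on D2 and 2721 to 13795 CPM on D9, and all 6 miRNAs of the list had reads. The part of blood cells in the rise of miR-200c-3p was not tested.

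In sham rats the change from D2 to D9 rested on sham rat 2. MiR-200c-3p was higher on D9 in 4 of 4 sham rats, with a log2 fold change of 2.56 (SE 0.55, adjusted p = 0.00318 by edgeR, 1 of 7 members called against a background of 6.71%). It became 0.83 when the D9 library of sham rat 2 was left out (SE 0.51, adjusted p = 0.427 by edgeR). MiR-200b-3p was higher on D9 in 3 of 4 sham rats, miR-200a-3p and miR-141-3p in 2 of 4, and miR-429 in 1 of 4. Of the 3 sham rats other than rat 2, miR-200c-3p was higher on D9 in 3, miR-200b-3p in 2, and miR-200a-3p, miR-141-3p and miR-429 in 1 each. The change of miR-200c-3p in TBI rats minus that in sham rats was -1.85 on the log2 scale (SE 0.61, adjusted p = 0.0688 by edgeR, background 3.79%) and -0.03 without that library. For sham rats, day and library run cannot be told apart.

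No member differed between TBI+ and TBI- rats at an adjusted p below 0.05, on D2 or on D9. The background was 0% on both days by edgeR's quasi-likelihood test, with 38 of 565 miRNAs on D2 and 22 of 541 on D9 at an unadjusted p below 0.05, and DESeq2 also called 0. The log2 fold changes of TBI+ against TBI- for miR-200c-3p were 0.10 (SE 0.35, 95% interval -0.60 to 0.81) on D2 and 0.05 (SE 0.42, -0.80 to 0.91) on D9, and for miR-200a-3p 0.08 (SE 0.23, -0.39 to 0.55) and 0.38 (SE 0.32, -0.26 to 1.02). These intervals leave room for differences of up to 1.02 on the log2 scale.

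MiR-429 was the member whose levels differed most between the outcomes, in opposite directions on the 2 days. On D2 it was at 373, 570 and 957 CPM (lowest, median and highest) in TBI+ rats and at 201, 350.5 and 660 CPM in TBI- rats. On D9 it was at 293, 464 and 655 CPM in TBI+ rats and at 245, 644 and 1347 CPM in TBI- rats. The groups overlapped on both days. TBI+ against TBI- gave a log2 fold change of 0.67 on D2 (SE 0.22, 95% interval 0.21 to 1.12, unadjusted p = 0.00523, adjusted p = 0.428 by edgeR) and of -0.56 on D9 (SE 0.30, -1.17 to 0.05, adjusted p = 0.802). From D2 to D9 miR-429 was higher in 2 of 7 TBI+ rats (median ratio 0.769), in 7 of 9 TBI- rats (median ratio 2.12) and in 1 of 4 sham rats (median ratio 0.896). The difference of these changes, TBI+ minus TBI-, was -1.29 on the log2 scale (SE 0.40, 95% interval -2.08 to -0.49). It was computed after the values above had been seen, and it failed the correction over all 581 miRNAs (unadjusted p = 0.00214, adjusted p = 0.531 by edgeR). That fit held no term for the rat, so it treated the 2 libraries of a rat as independent. The background of that comparison was 0%, with 42 miRNAs at an unadjusted p below 0.05 and 1 miRNA, no member of the family, called by DESeq2. With the run as a covariate the difference was -0.80 (adjusted p = 1 by edgeR). The same 4 of 7 TBI+ rats lay in the run of the sham libraries on both days, and that run differed between the days. No TBI- rat made this change of run. Within the run that held 3 TBI+ and 5 TBI- libraries on D2, miR-429 ranged from 570 to 850 CPM and from 304 to 660 CPM respectively. Within the run that held 3 and 5 on D9, it ranged from 368 to 655 CPM and from 510 to 1347 CPM. The same difference was 0.25 for miR-200a-3p (SE 0.41), -0.43 for miR-200b-3p (SE 0.50) and -0.07 for miR-200c-3p (SE 0.56). Whether miR-429 differed in this from the other members was not tested.

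**Figure D4:**
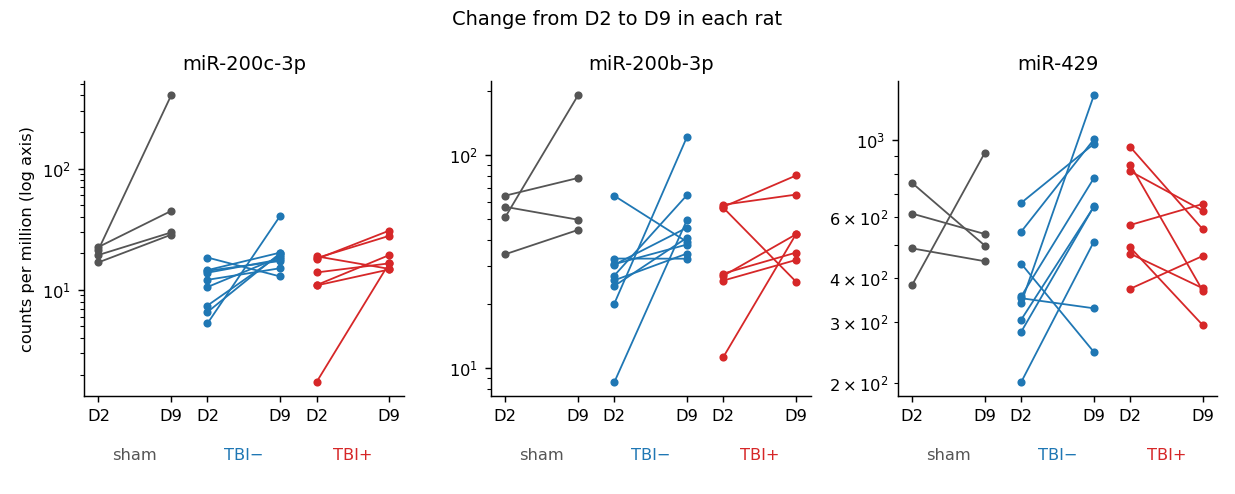
Level (CPM, log axis) of miR-200c-3p, miR-200b-3p and miR-429 on D2 and D9, with a line joining the libraries of each rat, by outcome. MiR-429 falls in 5 of 7 TBI+ rats and rises in 7 of 9 TBI- rats, and the steepest miR-200c-3p line is sham rat 2.

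The members did not vary as a single unit across libraries, and neither cluster nor seed alone gave their grouping. The libraries share their depth and the total by which CPM is divided, so the correlations are descriptions. Over the length of miR-200c-3p, the printed Mir200b hairpin differs from it at a single base, just past the capitals. How reads matching both genes were counted is not given, so their counts too are uncertain as separate measurements. MiR-200b-3p and miR-200c-3p, of the same seed but different chromosomes, had a Spearman's rho of 0.765 over 40 libraries, 0.743 over the 20 of D2 and 0.740 over the 20 of D9. MiR-200a-3p and miR-200b-3p, of the same cluster, had 0.609, 0.663 and 0.498. MiR-429 and miR-200a-3p, also of the same cluster, had 0.310, 0.653 and -0.0045, so that their levels went together on D2 and not on D9. The library runs were divided differently over the days. On D9 the TBI+ medians of miR-429 and miR-200a-3p were 419 and 945 CPM in the run of the sham libraries. They were 626 and 530 CPM in the other run with TBI+ libraries. The part of run in this loss of correlation was not tested. Over the 19 libraries of D9 other than sham rat 2, rho was 0.696 for miR-200b-3p with miR-200c-3p, 0.414 for miR-200a-3p with miR-200b-3p and 0 for miR-429 with miR-200a-3p. The ratio of miR-429 to miR-200a-3p reads ranged from 0.755 to 1.05 in sham rats and from 0.445 to 1.65 in TBI rats on D2. On D9 it ranged from 0.282 to 2.66 in sham rats (0.418 to 2.66 without sham rat 2) and from 0.309 to 3.71 in TBI rats. MiR-429 and miR-200c-3p, which share a seed, had 0.365 over 40 libraries.

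**Figure D5:**
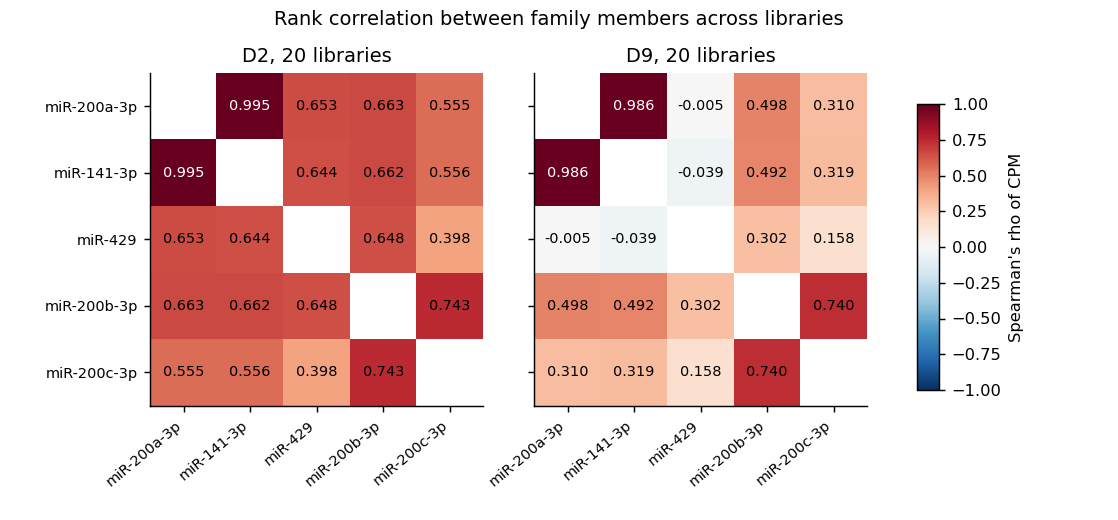
Spearman's rho of CPM between the 5 main members over the 20 libraries of each day, as colour and number. MiR-200a-3p with miR-141-3p stays near 1 on both days, and miR-429 with miR-200a-3p goes from 0.653 on D2 to -0.0045 on D9.

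Some other miRNAs of epithelium were more abundant than any single member of the family. Of 26 miRNAs with such names, 20 were tested on D2 and 18 on D9. The highest were miR-192-5p of gut, liver and kidney epithelium (median 43026 CPM), the endocrine and gut miRNA miR-375-3p (3462 CPM), miR-182 (1297 CPM) and the stratified-epithelium miRNA miR-205 (1075 CPM), followed by miR-194-5p (98.5 CPM) and miR-34c-5p (73.5 CPM). Between TBI and sham rats, 1 of 20 was called on D2, miR-182, higher in TBI rats with a log2 fold change of 1.29 (SE 0.36, adjusted p = 0.0274 by edgeR), and 0 of 18 on D9. The background was 6.19% of all miRNAs on D2 and 3.51% on D9, so the list was not called more often than miRNAs in general. MiR-182 was also higher in TBI+ rats against sham on D2 (1.46, SE 0.38, adjusted p = 0.0241 by edgeR), 1 of 20 against a background of 3.19%. Neither call of miR-182 held when sham rat 1, 2 or 3 was left out: TBI against sham was then 1.203, 1.25 and 1.07 (adjusted p = 0.126, 0.0789 and 0.149 by edgeR), and TBI+ against sham 1.38, 1.43 and 1.28 (adjusted p = 0.11, 0.0624 and 0.109 by edgeR). MiR-194-5p was lower in TBI- rats against sham on D9 (-1.61, SE 0.48, adjusted p = 0.0454 by edgeR), 1 of 18 against a background of 4.81%. It was not called without sham rat 2 (-0.31, adjusted p = 0.882 by edgeR) or without sham rat 4 (-1.74, adjusted p = 0.05003 by edgeR). Over the list, the median log2 fold change of TBI against sham was 0.55 on D2 and 0.01 on D9, and 0.18 on D9 without sham rat 2, where 0 of 18 and 0 of all 541 miRNAs were called.

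From D2 to D9 in TBI rats, 5 of 20 of these miRNAs were called by edgeR, 3 upward and 2 downward, a smaller share than the 32% of all miRNAs. MiR-34c-5p rose by 1.55 (SE 0.24, adjusted p = 9.3e-07) and miR-34b-5p by 1.25 (SE 0.36, adjusted p = 0.00545) on the log2 scale, both miRNAs of ciliated epithelium. MiR-194-5p, which shares gene clusters with miR-192, rose by 0.81 (SE 0.28, adjusted p = 0.0211). MiR-182 fell by 1.26 (SE 0.26, adjusted p = 0.000122) and its cluster neighbour miR-96-5p fell by 1.87 (SE 0.54, adjusted p = 0.00453). MiR-96-5p was scarce, with 196 reads in all and a median of 2.1 CPM, as was miR-34b-5p, with 436 reads and 8 CPM. How the 5 calls depend on scaling, depth or run is not given here. In sham rats, miR-194-5p rose by 2.15 (SE 0.59, adjusted p = 0.018) and miR-449a-5p by 3.15 (SE 0.89, adjusted p = 0.0185), 2 of 20 against a background of 6.71%. Without the D9 library of sham rat 2, 0 of 20 were called against a background of 1.89%. MiR-194-5p was then 0.84 (SE 0.56, adjusted p = 0.516 by edgeR) and miR-449a-5p 3.11 (SE 0.97, adjusted p = 0.0594 by edgeR). MiR-449a-5p was also not called without sham rat 3 (2.85, adjusted p = 0.219 by edgeR). This miRNA was scarce, with 365 reads over the 40 libraries and a median of 7.18 CPM. In the sham libraries of D9, 3 reads alone give 8.38 to 21.3 CPM.

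The miRNAs whose levels were most like the summed level of the family included some of these. Among miRNAs with a median of at least 10 CPM, the 5 with the highest Spearman's rho over the 40 libraries were miR-375-3p (0.659), miR-30d-5p (0.641), miR-192-5p (0.621), miR-30a-5p (0.533) and miR-542-3p (0.528). Without sham rat 2 on D9 the values were 0.642, 0.626, 0.624, 0.507 and 0.508 over 39 libraries, and miR-101a-3p (0.550) and miR-21-5p (0.543) then took the places of miR-30a-5p and miR-542-3p among the 5 highest. Within the 20 libraries of a day, miR-375-3p had 0.568 on D2 and 0.633 on D9, and miR-192-5p had 0.561 and 0.738. MiR-199a-3p, which is not of the epithelial list, had 0.755 on D2, above both, and 0.678 on D9, above miR-375-3p. Its value over the 40 libraries was 0.393. MiR-205 had 0.237 and miR-182 had -0.0216 over the 40 libraries.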

How the data were processed

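The authors trimmed adapters and low-quality bases with Trimmomatic 0.36 (FastQC 11.8 for read quality), merged the flow cells of each sample, aligned to the rat genome with Bowtie2, counted miRBase miRNAs with featureCounts and deposited a matrix of raw read counts. How reads matching several miRNAs were counted is not given in the sources used here. Each of the 20 rats gave 1 library on each day, and no 2 libraries were identical. Comparisons were fitted on the counts of all miRNAs with at least 1 read in the libraries of the comparison, D2 and D9 separately or together for changes between days, with edgeR 4.0.16 (TMM, glmQLFit and glmQLFTest, R 4.3.3), adjusted p below 0.05. CPM values divide by the library's total count. The alternatives were DESeq2 1.42.0, RLE scaling, library totals, filterByExpr, thinning to the smallest library, replicate blocks, runs of library numbers, and leaving out each sham rat. Runs, the change of TBI+ minus TBI-, the sum without miR-141-3p and the sham D9 library of rat 2 left out alone were chosen after the data were seen. The named miRNAs were all members, the up to 6 most abundant or any called miRNAs of the epithelial list, and the 5 most like the family's sum. MiR-199a-3p was added after the data were seen. The members and lists were chosen with earlier results of these data known. Rats on D2 and D9 are paired by their titles; deviations from group means correlated above 0.1 in 4 of 20 such pairs (274 miRNAs). The code was tested on simulated data. Summaries and plots were made in Python 3.11.15 with pandas 2.3.3, scipy 1.17.1, numpy 2.4.6 and matplotlib 3.10.9. Leaving sham rats out of the correlations between members and of the epithelial list was chosen after the data were seen.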

Additional observations from a re-analysis of the deposited data

Results flagged for a closer look

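Each of the 7 members with reads, and the family's sum, was looked at in each group and day, of 4, 7 or 9 libraries. Of these 48 sets of values, which overlap, 4 had a highest library whose gap to the next exceeded Dixon's 95% critical value. For a single set, chance gives about 1 in 20. MiR-200c-3p in sham rats on D9 was 401 CPM in rat 2 (65 reads), where the others were at 28.4 to 44.7 CPM. TBI- rat 4 on D9 was highest in both miR-200c-3p, at 40.7 CPM (20 reads, others 12.9 to 20.3 CPM), and miR-200b-3p, at 122.1 CPM (60 reads, others 32.6 to 65 CPM). On D2, miR-200b-3p was 64.4 CPM in TBI- rat 2 (48 reads, others 8.58 to 32.7 CPM).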

How the results depend on the processing

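Of 263 values of single members under an alternative, 226 kept their direction and side of the threshold. The number of members called between TBI and sham on D9, 1 in each of the 3 comparisons, went from 0 to 1 as each sham rat was left out (0 without rat 2), was 0 with the animal number as replicate block (miR-200c-3p -1.75, adjusted p = 0.0568 by edgeR, for TBI against sham), and for TBI- was 0 with the run as covariate (-2.45, adjusted p = 0.257). Animal numbers share only a number across groups: deviations of same-numbered rats correlated above 0.1 in 8 of 30 pairs. From D2 to D9 in TBI rats the count of 1 became 0 with RLE or the run as covariate. It became 2 with filterByExpr or the rat as replicate block, and with thinning the 1 call was miR-141-5p. Over all miRNAs, 168 of 332 were called with filterByExpr, 162 of 581 with the rat block and 98 of 509 with thinning. The rat block changed no other count. In sham rats the count was 0 to 2 as each rat was left out (2 without rat 4, where miR-200b-5p was 4.75) and 0 without the D9 library of rat 2. Without rat 4, 46 of all 575 miRNAs were called. The change of TBI minus sham had 1 call, of miR-200c-3p, with RLE (-2.17) or filterByExpr (-1.93). Over all miRNAs, 19 of 581 were called with RLE and 22 of 332 with filterByExpr. The sham median of the family's sum on D2 was 1253 CPM without miR-141-3p, where that of TBI rats was 956 CPM. Signs turned for members that were not called in the comparison. For TBI against sham on D2, miR-429 was 0.02 with DESeq2 and RLE, 0.05 with the run as covariate and -0.19 to 0.10 as each sham rat was left out. On D9, miR-200a-3p was 0.03 with the block, 0.12 with the run and -0.67 to 0.06 by left-out rat, and miR-141-3p was 0.18, 0.34 and -0.45 to 0.04. MiR-429 on D9 was -0.06 with DESeq2 and RLE, -0.02 with filterByExpr, -0.17 with thinning, -0.40 with the run and -0.07 to 0.38 by left-out rat. MiR-200c-3p, TBI+ against TBI- on D9, was -0.07 with the run. DESeq2 gave no adjusted p for 8 values among those above and in the text, including miR-200c-3p on D9. The cause of these changes was not tested. The sham libraries of D9, with the lowest totals, limit the scarce members to counts of 4 to 65 reads for miR-200c-3p.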
